A study of Mus musculus with 2 samples.

Results

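The 6 CC chemokine genes Ccl2, Ccl7, Ccl8, Ccl12, Ccl6 and Ccl9 and the receptor gene Ccr2 were followed through every cell class of mouse pancreatic tumors profiled by single-cell RNA sequencing. These 7 genes were taken by symbol from the 32285 genes of the count matrices, and each was found once. Their unique molecular identifiers (UMIs, the tags by which each captured RNA molecule is counted once) were summed per cell class in each library, over barcodes kept as cells: those that carried 500 UMIs or more, had from 200 to 5000 genes detected and owed no more than 8% of their UMIs to mitochondrial genes.

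The tumors grew in the pancreas from implanted KPC cells, which are mouse pancreatic cancer cells. FLOX mice carried Slc16a1, the gene of the lactate transporter MCT1, between loxP sites (MCT1 fl/fl). In the MCT1-KO mice the same floxed gene was combined with Col1a2-CreERT2, a tamoxifen-inducible Cre recombinase whose promoter is active in fibroblast-like cells, among them pancreatic stellate cells (PSCs). The study's scheme names injections of tamoxifen or corn oil before implantation. The sources used here do not say which of these the FLOX mice received, how old the mice were or how many were pooled. Cells of dissociated tumor tissue were profiled without a sort, as 1 library per genotype. A difference between the libraries therefore has no replicate check, no test between genotypes is possible, and intervals in parentheses are 95% intervals that cover counting error only.

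CC chemokines are small secreted proteins that guide leukocytes along a gradient. Ccl2, Ccl7, Ccl8 and Ccl12 are the mouse monocyte chemoattractant proteins, and Ccr2 is the receptor through which Ccl2, Ccl7 and Ccl12 draw inflammatory monocytes out of the marrow and into tissue, where they mature into macrophages and lose the receptor. Mouse Ccl8 also acts through Ccr8, and Ccl6 and Ccl9 act through Ccr1. In pancreatic tumors, fibroblasts and macrophages are both known sources of Ccl2.

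The libraries held 8739 cells (FLOX) and 11689 cells (MCT1-KO), with medians of 4069 and 3706 UMIs per cell. The cells formed 24 clusters, of which 3 stayed unnamed and the rest fell into 10 classes named by markers and written as "-like". Slc16a1, the targeted gene, gave 57 UMIs in PSC-like cells of FLOX, or 25.6 CPM (19.4 to 33.1), where CPM is the gene's UMIs per 1e+06 UMIs of the class, and 112 UMIs in the other library, or 35.1 CPM (28.9 to 42.2). It was thus not lower in the library labelled MCT1-KO, which goes against the label by its value, though the intervals overlap. The study, in contrast, reports lower MCT1 in PSCs of the knockout mice from its own single-cell data. It also reports reduced MCT1 protein and RNA in PSCs isolated from such mice, and reduced MCT1 by staining of pancreas sections. The sources used here do not say which exons were removed or whether the sequenced end of the transcript lies outside them, so whether this value can show the deletion is not known, and the second library is named by its label throughout. A barcode sequence was shared by 59 cells of each library. Heat shock RNA differed widely between the libraries (Hspa1a in monocyte/macrophage-like cells, 1064 and 106 CPM), as did acinar enzyme RNA (Ctrb1 in the same cells, 27.4 and 706 CPM). Barcodes with only 10 to 100 UMIs were taken as free RNA, that is, RNA outside cells.

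**Figure D1:**
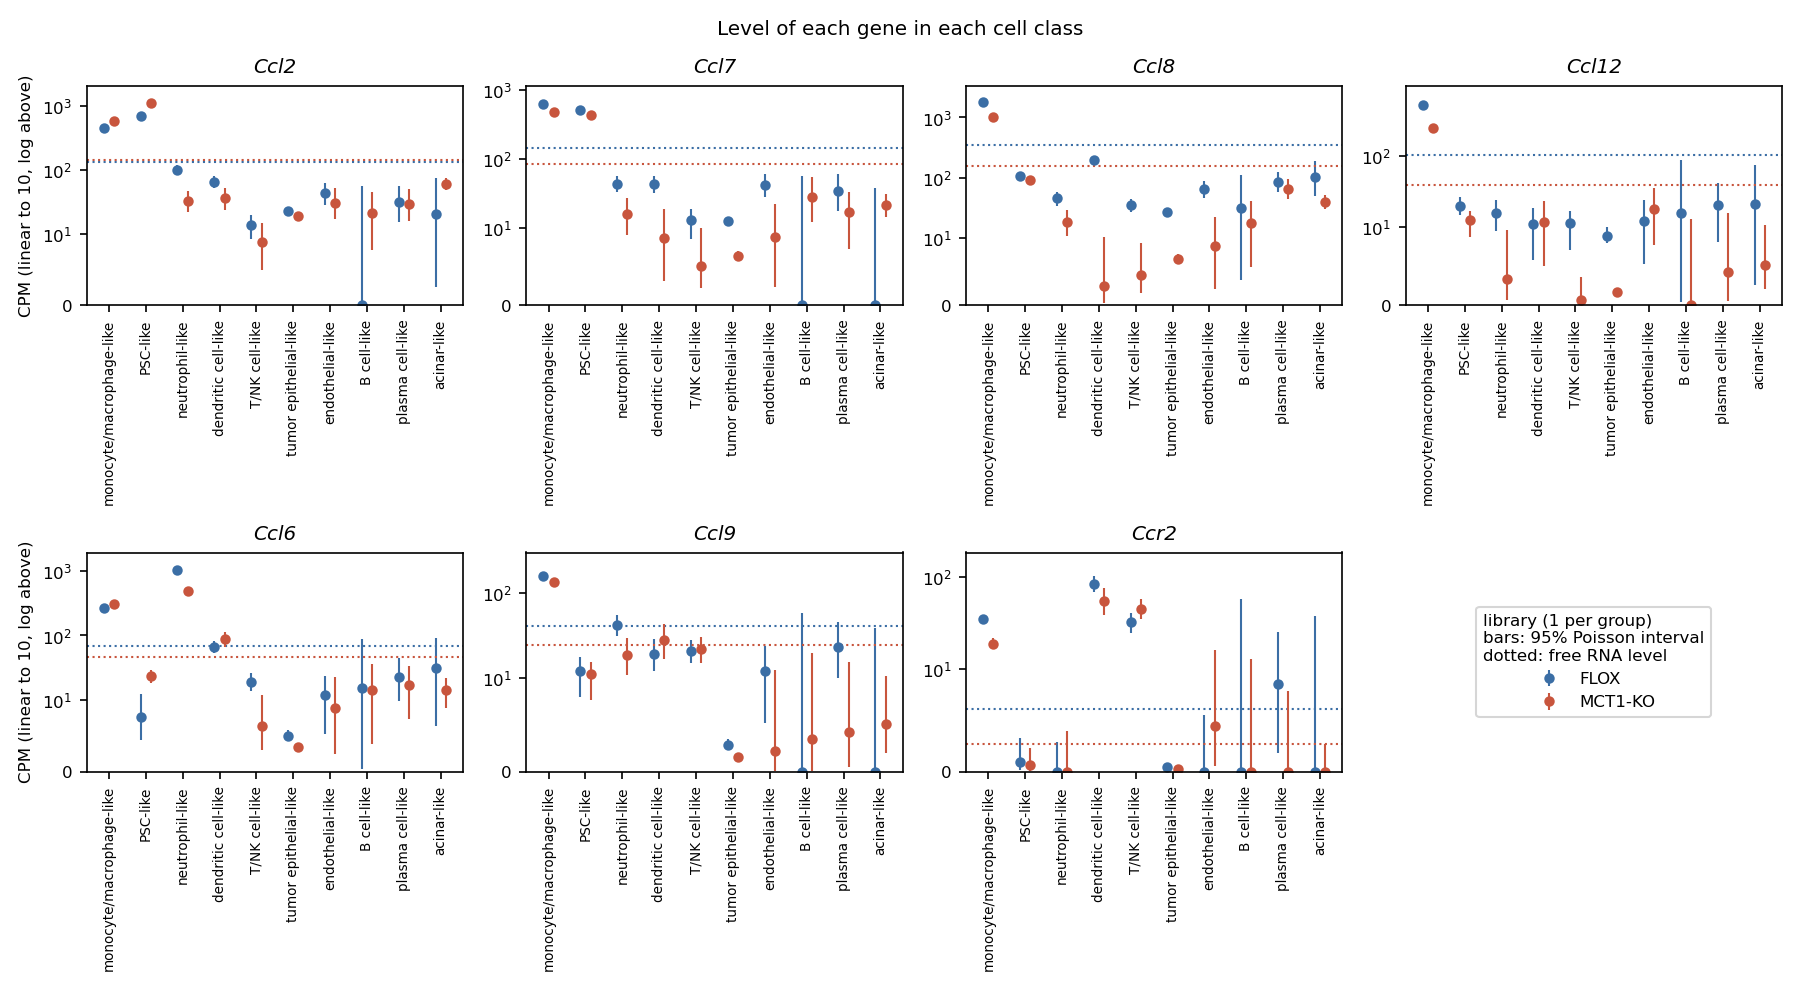
Level of each of the 7 genes (vertical axis, CPM, linear up to 10 and logarithmic above) in each cell class of the FLOX and MCT1-KO libraries; points are summed UMIs over all UMIs of a class, bars are 95% Poisson intervals and dotted lines are the level in free RNA. Ccl8, Ccl12 and Ccl9 stand above free RNA in monocyte/macrophage-like cells, Ccl2 and Ccl7 there and in PSC-like cells, and Ccl6 there, in neutrophil-like cells and, in MCT1-KO only, in dendritic cell-like cells. Ccr2 stands above it in monocyte/macrophage-like, dendritic cell-like and T/NK cell-like cells.

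Ccl2 and Ccl7, adjacent genes on chromosome 11, had the same 2 producing classes. Ccl2, the main ligand of Ccr2, stood at 712 CPM (677 to 748) in PSC-like cells of FLOX and 1124 CPM (1087 to 1161) in those of the library labelled MCT1-KO. In monocyte/macrophage-like cells it stood at 458 CPM (447 to 469) and 598 CPM (584 to 612). All other named classes lay at or below 101 CPM, under the free RNA levels of 135 and 143 CPM. Per UMI the PSC-like sums were the higher in both libraries, but a few cells carried much of them: 10 cells held 41.8% and 21.5% of the Ccl2 UMIs of PSC-like cells, against 7.93% and 8.66% in monocyte/macrophage-like cells. With the 10 richest cells of each class and library left out, an alternative chosen after seeing the data, Ccl2 stood at 451 and 926 CPM in PSC-like and 425 and 549 CPM in monocyte/macrophage-like cells. The FLOX difference between the classes was then small. Because monocyte/macrophage-like cells were many more (2562 and 2223, against 233 and 429 PSC-like cells), they still held most of the transcripts in kept cells. They held 71.4% and 58.6% of all Ccl2 UMIs there, PSC-like cells 15.9% and 29.6%, and tumor epithelial-like cells 7.87% and 8.63%. Kept cells leave out those of over 5000 genes, which were mostly tumor epithelial-like (1966 and 1173). With these added, the monocyte/macrophage-like share of Ccl2, both libraries together, went from 64.4% to 56.7%.

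Ccl7, a second Ccr2 ligand, stood at 619 CPM (607 to 632) in FLOX monocyte/macrophage-like cells and at 483 CPM (471 to 496) in those labelled MCT1-KO. In PSC-like cells it was 517 CPM (487 to 547) and 435 CPM (412 to 458). The order of the classes was thus the opposite of that for Ccl2, with monocyte/macrophage-like cells above PSC-like cells in both libraries. Free RNA held 146 and 83.8 CPM of Ccl7, and every remaining named class at most 44.0 CPM. Monocyte/macrophage-like cells held 83.3% and 74.8% of Ccl7 UMIs and PSC-like cells 9.93% and 18.1%.

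Ccl8 and Ccl12 were largely held by monocyte/macrophage-like cells. Ccl8 reached 1825 CPM (1804 to 1846) there in FLOX and 1002 CPM (984 to 1020) in the library labelled MCT1-KO, and this class held 92.3% and 92.1% of its UMIs. Ccl12, which is found in mouse and not in human, stood at 528 CPM (517 to 540) and 250 CPM (241 to 259), with 93.0% and 93.2% of its UMIs in this class. The next named class for Ccl8 was dendritic cell-like in FLOX (194 CPM), but 10 cells held 89.3% of those UMIs and the other library gave 2 Ccl8 UMIs in its 106 dendritic cell-like cells. PSC-like cells held 108 and 93.0 CPM of Ccl8, with 64.3% and 71.0% of the UMIs in 10 cells each. Both values were under the free RNA levels of 352 and 158 CPM. For Ccl12, no other named class passed 20.7 CPM, against 102 and 38.3 CPM in free RNA.

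Ccl6 had a different pair of sources. Its level was highest in neutrophil-like cells of both libraries, at 1018 CPM (964 to 1075) in FLOX and 491 CPM (447 to 538) in the library labelled MCT1-KO. Monocyte/macrophage-like cells followed with 266 CPM (258 to 275) and 306 CPM (296 to 316), then dendritic cell-like cells with 66.4 CPM (52.7 to 82.7) and 87.1 CPM (66.5 to 112), where free RNA held 69.4 and 46.7 CPM. Neutrophil-like cells carry few UMIs each (median 1471 and 1076), and they held 22.4% and 10.02% of Ccl6 UMIs, whereas monocyte/macrophage-like cells held 70.8% and 80.7%. Ccl9, the neighbour of Ccl6, lacked the neutrophil-like source. It stood at 160 CPM (154 to 167) and 135 CPM (128 to 141) in monocyte/macrophage-like cells, with 89.4% and 87.9% of its UMIs. In neutrophil-like cells it was 41.7 and 18.5 CPM, beside 40.9 and 24.6 CPM in free RNA.

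The receptor Ccr2 was sparse, with 744 and 351 UMIs in all kept cells. It was highest in dendritic cell-like cells, at 84.7 CPM (69.1 to 103) in FLOX and 55.2 CPM (39.0 to 75.7) in the library labelled MCT1-KO. Monocyte/macrophage-like cells of FLOX came next with 35.2 CPM (32.3 to 38.2), and T/NK cell-like cells with 32.3 CPM (25.1 to 41.1), and these neighbours overlapped. In the library labelled MCT1-KO the order of these last classes was reversed, with 45.4 CPM (35.5 to 57.3) in T/NK cell-like cells, which overlapped dendritic cell-like cells, and 18.9 CPM (16.6 to 21.6) in monocyte/macrophage-like cells. Free RNA held 6.07 and 2.73 CPM. Not 1 Ccr2 UMI fell in the 757 and 708 neutrophil-like cells, which allows a level of up to 2.85 and 4.02 CPM, and PSC-like cells held 2 UMIs in each library. Monocyte/macrophage-like cells held 73.8% and 64.1% of Ccr2 UMIs, dendritic cell-like cells 13.7% and 10.8%, and T/NK cell-like cells 9.01% and 20.2%.

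**Figure D2:**
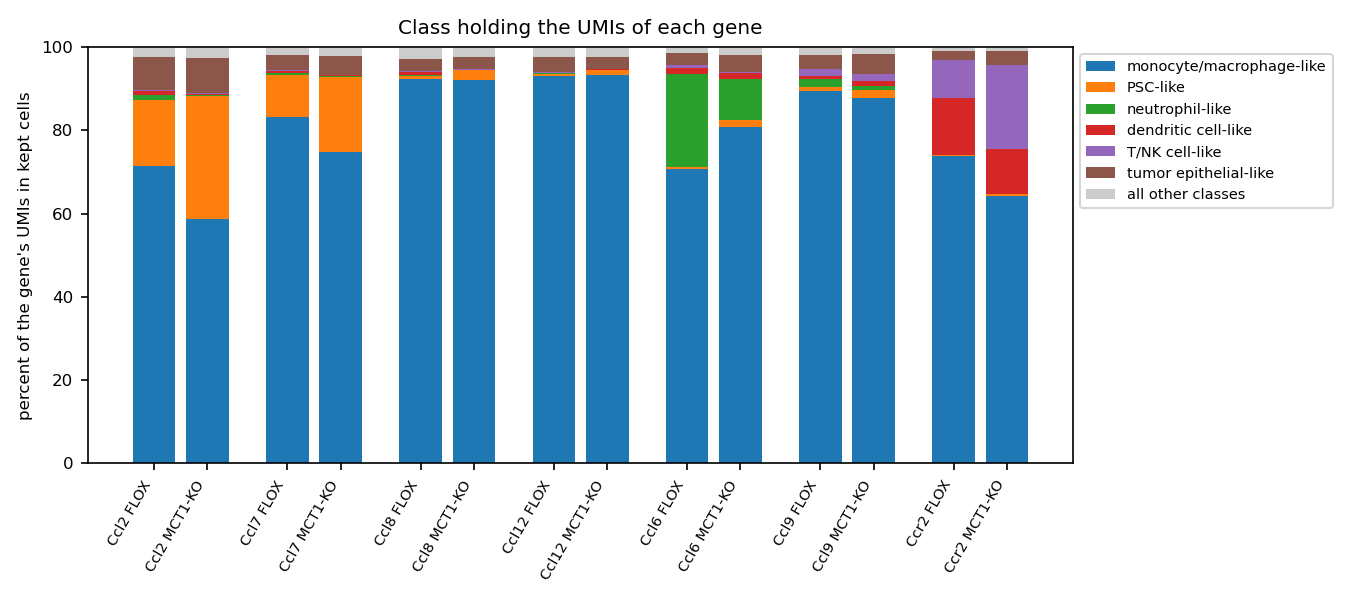
Percent of each gene's UMIs in kept cells (vertical axis) held by each cell class, 1 stacked bar per gene and library; colors are classes and grey is all other classes. Among kept cells, monocyte/macrophage-like cells hold 58.6% to 93.2% of every gene, and the second source is PSC-like for Ccl2 and Ccl7 and neutrophil-like for Ccl6. Cells of over 5000 genes are not included, and with them added the Ccl2 share, both libraries together, is 56.7%.

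Detection per cell was compared as well. To compare cells of unequal depth, each cell was thinned to 1000 UMIs and shallower cells were left out (193 and 125 monocyte/macrophage-like, 26 and 36 PSC-like, 54 and 268 neutrophil-like, and 140 and 162 tumor epithelial-like cells in FLOX and MCT1-KO). Tumor epithelial-like cells, which are not a known source of Ccl8 and had median depths of 16379 and 15858 UMIs against 5903 and 4840 in monocyte/macrophage-like cells, served as the class that should lack the gene. At least 1 Ccl8 UMI was then seen in 48.4% (46.4 to 50.5) of FLOX monocyte/macrophage-like cells and in 30.3% (28.4 to 32.3) of those labelled MCT1-KO, against 4.99% and 0.980% of tumor epithelial-like cells. Unthinned, the monocyte/macrophage-like shares were 69.2% and 46.9%. For Ccl12 the thinned shares were 26.3% and 15.0%, against 1.61% and 0.163%. A Ccl2 UMI was seen in 24.5% (22.8 to 26.3) and 28.9% (27.0 to 30.9) of thinned monocyte/macrophage-like cells. Among PSC-like cells the shares were 27.5% (21.6 to 34.2) in FLOX and 35.4% (30.6 to 40.3) in the other library, and among tumor epithelial-like cells 3.18% and 1.36%. Unthinned, the Ccl2 shares were 49.8% and 49.6% in monocyte/macrophage-like and 45.9% and 54.1% in PSC-like cells. In tumor epithelial-like cells they were 13.5% and 9.38%. The intervals of these 2 classes overlapped in thinned cells of both libraries. Unthinned, the PSC-like share was the lower in FLOX and the higher in the library labelled MCT1-KO. For Ccl7 the thinned shares were 26.4% and 22.8% in monocyte/macrophage-like cells, 25.1% and 24.7% in PSC-like cells and 1.40% and 0.544% in tumor epithelial-like cells. Ccl6 was seen in 42.4% and 28.4% of thinned neutrophil-like cells, against 1.20% and 0.327% of tumor epithelial-like cells. Without thinning it was seen in 48.7% and 30.2% of neutrophil-like cells, against 5.93% and 3.96%. For Ccr2 the thinned share was only 2.41% and 1.57% in monocyte/macrophage-like cells, against 0.124% and 0.0816% of tumor epithelial-like cells. Without thinning the shares were 8.70% and 4.77%, against 0.663% and 0.313%.

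All 6 ligand genes lie on chromosome 11 within 1557517 bases, from 82035571 to 83593087 (GENCODE vM21, build GRCm38, used for positions because the files carry none). They form 3 close pairs. Ccl2 (chr11:82035571-82037453) and Ccl7 (chr11:82045712-82047525) are 8258 bases apart on the plus strand. Ccl12 (chr11:82101845-82103400) and Ccl8 (chr11:82115185-82116799) are 11784 bases apart on the plus strand. Ccl9 (chr11:83572919-83578636) and Ccl6 (chr11:83587882-83593087) are 9245 bases apart on the minus strand. Ccr2 is on chromosome 9 (chr9:124101950-124113557, plus strand). Over the 46 combinations of cluster and library with at least 100000 UMIs, Pearson's r of log2(CPM + 10) was 0.94 between Ccl2 and Ccl7 and 0.95 between Ccl8 and Ccl12, the highest values among all pairs of the 7 genes, while Ccl6 and Ccl9 reached 0.755. Ccl9 had higher values with Ccl12 (0.778) and Ccl8 (0.766) than with its neighbour Ccl6. Genes outside a close pair also reached high values, such as Ccl7 with Ccl8 (0.899) and with Ccl12 (0.868). The points share libraries, depth and cluster identity, so r is a description. It is also not particular to these genes, as the lists of most similar genes show (given after the sub-clusters).

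The promoters of the pairs Ccl8 with Ccl12 and Ccl6 with Ccl9 are shown because the first pair had nearly the same pattern across clusters and the second did not. RefSeq promoter entries (GRCm38.p6) were found for 5 of the 7 members. The 150 bases before each annotated start are printed 5' to 3' on the gene's strand, and capitals mark the word TATAAA on the gene strand and a stretch shared within the pair over the 250 bases before the start, for Ccl6 with Ccl9 the longest one and for Ccl8 with Ccl12 the first of 3 equally long ones.
Ccl8, chr11:82115035-82115184, plus strand: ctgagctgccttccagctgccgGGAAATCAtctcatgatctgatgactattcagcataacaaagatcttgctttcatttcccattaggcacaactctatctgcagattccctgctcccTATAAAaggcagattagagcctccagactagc
Ccl12, chr11:82101695-82101844, plus strand: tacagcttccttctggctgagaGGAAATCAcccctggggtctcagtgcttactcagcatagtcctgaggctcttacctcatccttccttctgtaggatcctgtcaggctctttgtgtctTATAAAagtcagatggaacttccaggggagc
Ccl6, chr11:83593088-83593237, minus strand: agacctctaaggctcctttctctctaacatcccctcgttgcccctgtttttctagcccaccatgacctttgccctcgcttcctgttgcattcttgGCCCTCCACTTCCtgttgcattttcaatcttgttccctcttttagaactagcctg
Ccl9, chr11:83578637-83578786, minus strand: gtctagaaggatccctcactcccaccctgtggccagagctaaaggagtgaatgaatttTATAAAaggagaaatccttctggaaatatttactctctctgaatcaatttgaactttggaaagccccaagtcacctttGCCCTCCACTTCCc

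Ccl8 and Ccl12 share GGAAATCA at the same distance, 128 bases before both starts. A shared stretch of 8 bases is not particular to them, since Ccl8 with Ccl9, Ccl12 with Ccl9 and Ccl6 with Ccr2 share 9 bases and Ccl8 with Ccr2 also 8. Ccl8 and Ccl12 also carry TATAAA 32 and 31 bases before the start, a word found on the gene strand of 7.59% of 32851 promoters. Ccl6 and Ccl9 share a longer stretch of 13 bases, GCCCTCCACTTCC, but at 55 and 14 bases before their starts, and Ccl6 has no TATAAA in its window while Ccl9 has it 92 bases before the start. The word GGAAGT, read on both strands and held by 19.7% of promoters, occurred in Ccl12, Ccl6 and Ccl9, and in the latter pair it lies, read on the other strand, inside the shared stretch of 13 bases. These matches are a description of the letters and no binding site was measured.

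Between the libraries, monocyte/macrophage-like cells showed a split among the ligands. Ccl8 was lower in the library labelled MCT1-KO, at 0.549 of its FLOX level (0.538 to 0.561), and Ccl12 was at 0.473 (0.454 to 0.494). The receptor Ccr2 was at 0.539 (0.459 to 0.630). Ccl7 and Ccl9 were lower by less, at 0.781 (0.755 to 0.807) and 0.839 (0.788 to 0.894). Ccl2 was higher, with a ratio of 1.31 (1.26 to 1.35), and so was Ccl6, with 1.15 (1.10 to 1.20). Past a fold of 1.5, the size fixed for counting, 3 of the 7 genes (Ccl8, Ccl12 and Ccr2) were lower, beside 8.92% of the 11428 genes with at least 50 UMIs in this class, and 0 were higher, beside 8.87%. The median ratio was 0.781 over the members and 1.02 over all these genes. Ccl2 came to a ratio of 1.03 and Ccl6 to 0.902 once free RNA was subtracted. That step, scaled by acinar genes, took 36.2% of FLOX and 12.01% of MCT1-KO UMIs of this class as free RNA. It lowered the ratios of all 7 genes, among them Ccl8 to 0.420 and Ccl12 to 0.362. Whether the Ccl2 and Ccl6 differences came from free RNA was not tested. Ccr2 came to 0.714 (0.476 to 1.06) in cells thinned to 1000 UMIs, an interval that holds 1. For Ccl9 the interval held 1 without likely doublets, at 0.956 (0.893 to 1.02), and in thinned cells, at 0.989 (0.847 to 1.16).

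Stress RNA differed alongside these ratios. The 11 heat shock and immediate-early genes summed to 10017 CPM in FLOX monocyte/macrophage-like cells and to 4989 CPM in those labelled MCT1-KO, with 7 of 11 lower past 1.5 fold, beside 8.92% of genes, and free RNA held more Ccl8 and Ccl12 in FLOX (above). Their part in the ratios was not tested. Without the heat-shock-led sub-clusters, a setting chosen after seeing the data, the ratios were 0.592 for Ccl8, 0.489 for Ccl12, 0.811 for Ccl7 and 0.779 for Ccl9. Ccr2 was then at 0.505, Ccl2 at 1.32 and Ccl6 at 1.09. The summed stress list was lower in every other class as well, so leaving out these sub-clusters does not test its part.

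PSC-like cells showed the same order of ratios for Ccl2 and Ccl7. Ccl2 was higher in the library labelled MCT1-KO, with a ratio of 1.58 (1.49 to 1.68), and Ccl7 lower, with 0.842 (0.778 to 0.911). Ccl8 was at 0.861 (0.724 to 1.02), an interval that holds 1. Of the 6 members with at least 50 UMIs, 2 were higher past 1.5 fold (Ccl2 and Ccl6), beside 9.96% of 8604 genes, and 1 was lower (Ccl12), beside 11.2%. Ccl2 came under that fold without a sub-cluster that carried Upk1b (1.13), with free RNA subtracted (1.28) and with cells of over 5000 genes added (1.43). Ccl12 and Ccl6 rest on few UMIs here (44 and 39, and 17 and 74), both under the free RNA levels. A cell-by-cell assignment to classes by markers turned the Ccl7 ratio to 1.07 (0.99 to 1.16). Stress RNA differed in these cells too. The 11 heat shock and immediate-early genes summed to 10820 and 8096 CPM, with 6 of 11 lower past 1.5 fold, beside 11.2% of genes. The 8 genes of C1q macrophages summed to 2914 and 4935 CPM. The part of either list in the ratios was not tested.

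In neutrophil-like cells Ccl6 was at 0.482 of its FLOX level (0.432 to 0.537). Both clusters of the class shared that direction, with 1630 and 772 CPM in the one led by Retnlg, Ngp and S100a9, and 559 and 296 CPM in the one led by Hdc, Il1r2 and Il23a. The heat shock and immediate-early genes were lower in the same cells, at 8507 and 4227 CPM in sum, with 8 of 10 lower past 1.5 fold, and the other CC ligands on the list summed to 5189 and 1484 CPM. Their part in the Ccl6 ratio was not tested. All 5 members with at least 50 UMIs were lower past 1.5 fold, beside 10.5% of 4888 genes, but Ccl2, Ccl7, Ccl8 and Ccl9 were near or below their free RNA levels, and 10 cells held 81.7% of the 131 Ccl2 UMIs of FLOX. Ccr2 was at 0.651 (0.436 to 0.954) in dendritic cell-like cells and at 1.40 (0.991 to 1.99) in T/NK cell-like cells, where the interval holds 1. The ratio in dendritic cell-like cells came to 0.345 with each cell classed by its own markers and to 0.306 without the 10 cells richest in Ccr2, and its interval held 1 without likely doublets (0.473 to 1.07), with the total without mitochondrial, ribosomal, heat shock and acinar genes (0.465 to 1.02) and in thinned cells (0.195 to 1.89). In T/NK cell-like cells 5 alternatives gave intervals above 1, the highest ratio being 1.57 (1.11 to 2.24) with each cell classed by its own markers.

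**Figure D3:**
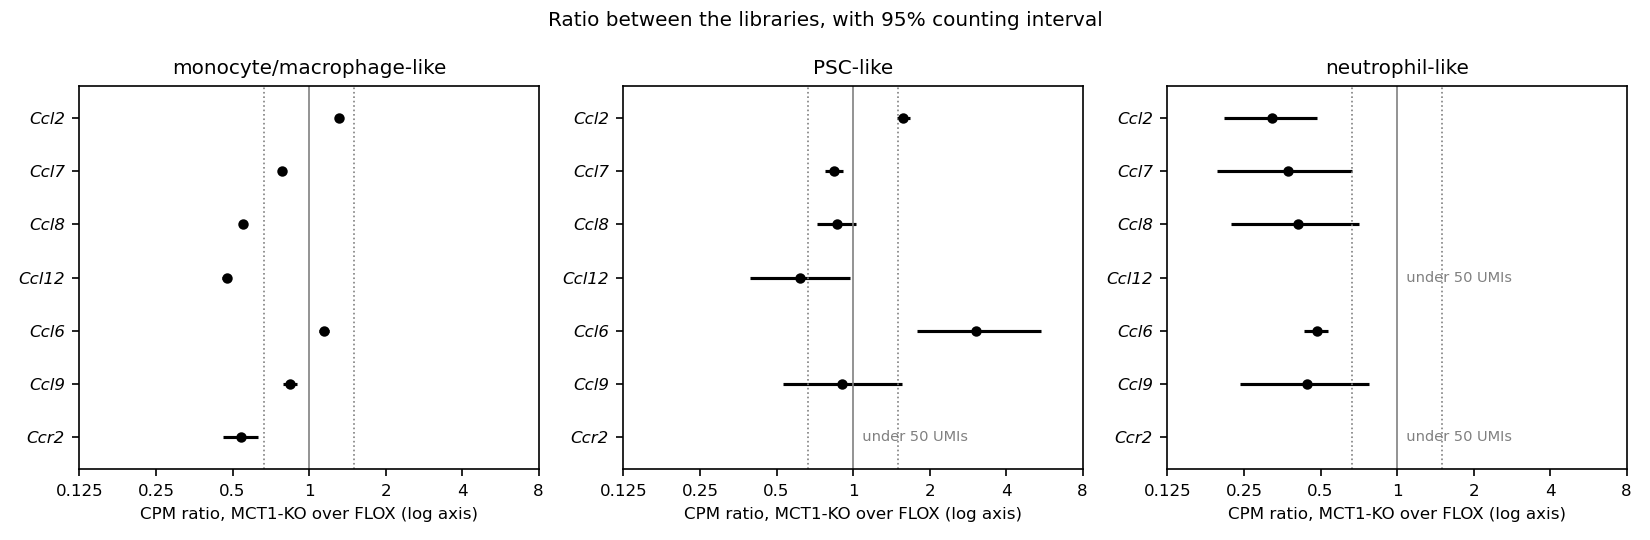
CPM ratio of MCT1-KO over FLOX (horizontal logarithmic axis) for each gene in 3 cell classes; points are ratios, bars are 95% conditional exact intervals that cover counting error, the solid line is 1 and dotted lines are a fold of 1.5. In monocyte/macrophage-like cells the points run from 0.473 for Ccl12 to 1.31 for Ccl2, and in neutrophil-like cells all 5 points lie under 1.

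Over all kept cells the 7 genes were lower in the library labelled MCT1-KO. Ccl2 was at 0.908 of its FLOX level, Ccl7 at 0.496, Ccl8 at 0.314, Ccl12 at 0.270, Ccl6 at 0.575, Ccl9 at 0.487 and Ccr2 at 0.354. Thus 6 of the 7 genes were lower past 1.5 fold, beside 14.3% of 15465 genes, and 0 were higher, beside 7.75%. Over all barcodes, free RNA and cells of over 5000 genes included, Ccl2 turned to 1.12 (1.10 to 1.14), Ccl6 came to 0.747, no longer past that fold, and Ccl7, Ccl8, Ccl12, Ccl9 and Ccr2 were at 0.632, 0.425, 0.362, 0.629 and 0.478. The kept cells held 53.5% of the Ccl2 UMIs of all barcodes in FLOX and 67.9% in the library labelled MCT1-KO. Monocyte/macrophage-like cells made up 29.3% of kept FLOX cells and 19.0% of kept cells labelled MCT1-KO, and 25.5% and 14.6% of the UMIs of kept cells. The limit of 5000 genes left out 2060 and 1231 cells, most of them tumor epithelial-like (1966 and 1173), and with these added the UMI shares of monocyte/macrophage-like cells were 13.7% and 10.2%. With each class given its FLOX share of the UMIs of kept cells, the ratios became 1.27 for Ccl2, 0.764 for Ccl7, 0.528 for Ccl8, 0.458 for Ccl12, 0.978 for Ccl6, 0.820 for Ccl9 and 0.630 for Ccr2. Class shares come from 1 dissociated tumor sample per genotype and were not tested.

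Within monocyte/macrophage-like cells the genes belonged to different states, described over 14 sub-clusters by their leading genes. Ccr2 was concentrated in a sub-cluster led by S100a8, Chil3 and S100a9, with Ly6c2 and Vcan, genes of inflammatory monocytes. Its 75 and 65 cells had 332 and 271 CPM of Ccr2, and they were 2.93% of the class but held 36.8% of its Ccr2 UMIs. Ccl6 was high in the same cells (916 and 1174 CPM), and Ccl8 was low (622 and 260 CPM). The proliferating sub-cluster led by Pclaf, with Mki67, had 34.6 and 29.5 CPM of Ccr2, and no other sub-cluster passed 57.6 CPM in either library.

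A small sub-cluster led by Lyve1, Fcna and Clec10a, with Cd163, genes of resident tissue macrophages, had the highest level of all 6 ligands. Its 23 and 55 cells held 5556 and 7330 CPM of Ccl8, 2634 and 2103 CPM of Ccl7, and 1382 and 2109 CPM of Ccl2. Ccl6 stood at 1914 and 1326 CPM, Ccl12 at 1713 and 719 CPM, and Ccl9 at 964 and 519 CPM. Ccr2 stood at 57.6 CPM (15.7 to 147) and 11.8 CPM (1.43 to 42.6) there, from 4 and 2 UMIs. These cells were 1.63% of the class and held 4.04% of its Ccl8 UMIs. At the other end stood a sub-cluster led by Lipg, Sox5 and Negr1, found as 33 cells in the library labelled MCT1-KO only, with 3 Ccl8 UMIs (18.3 CPM) and 0 Ccr2 UMIs, which allows 22.5 CPM. Without these 2 sub-clusters the Ccl8 ratio of the class was 0.511.

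The higher Ccl2 of the library labelled MCT1-KO was not even across states. In a sub-cluster led by Saa3, Arg1 and Mmp12, Ccl2 was 645 CPM (600 to 693) in 144 FLOX cells and 1422 CPM (1347 to 1500) in 171 cells labelled MCT1-KO, a ratio of 2.20 (2.01 to 2.41). In a sub-cluster led by Ifnb1 and Tnfsf9, with Tnf and Il1a, it was 684 and 1182 CPM, a ratio of 1.73 (1.56 to 1.92). In contrast, the largest cluster of the class, led by Apoe, Ms4a7 and Mertk with the C1q genes (1246 and 1028 cells), stood at 403 CPM of Ccl2 in FLOX and 410 CPM in the other library, which is 1.02 of the FLOX level (0.963 to 1.08). The same large cluster showed lower Ccl8, with 2146 and 1076 CPM and a ratio of 0.501 (0.486 to 0.517), and lower Ccl7, with 591 and 343 CPM and a ratio of 0.581 (0.550 to 0.614). The cluster led by Arg1 and Ifih1 (730 and 701 cells) had a Ccl2 ratio of 1.88 (1.79 to 1.98) and a Ccl8 ratio of 0.761 (0.735 to 0.789). Ccl2 and Ccl8 therefore parted in both clusters, and in each the Ccl8 ratio was below the Ccl2 ratio. These states were matched between the libraries by integration. Without integration the libraries largely parted in this class. A cluster led by Arg1 and F13a1 then held 281 FLOX and 1704 MCT1-KO cells, and one led by Hspa1a and Fcrls held 1718 and 101. The ratios by state were not taken in that setting.

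Ccl8 was high in further states. The sub-cluster led by Serpina3g, Iigp1 and Calhm6, with Cxcl9 and Gbp5, genes of the interferon response, had 3217 and 1926 CPM of Ccl8 and 946 and 548 CPM of Ccl12. The one led by E330020D12Rik, Ighm and Cx3cr1 had 2579 and 1623 CPM of Ccl8, and one of the heat-shock-led sub-clusters, led by Hsph1, Hspa1b and Bag3, 2526 and 1180 CPM. Outside the Lyve1-led cells, Ccl9 was high in the Saa3, Arg1 and Mmp12 sub-cluster, at 488 and 337 CPM, with 21.8% of the class's Ccl9 UMIs in 6.58% of its cells. Ccl8 was low in those cells, at 450 and 556 CPM.

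The direction between libraries was also counted over the 12 sub-clusters with at least 20 cells in each library. Ccl12 was lower in the library labelled MCT1-KO in 12 of 12, with ratios from 0.304 to 0.762. Ccr2 was lower in 10 and higher in 2, but its ratios ran from 0.126 to 6.14. The whole class held only 549 and 225 Ccr2 UMIs. Ccl7, Ccl8 and Ccl9 were each lower in 9 and higher in 3. Ccl2 was higher in 8 and lower in 4, and Ccl6 higher in 7 and lower in 5. Among these 12 were sub-clusters led by genes of other cells, one by Krt18 and Col1a1 with a median of 947 UMIs and one by Hbegf, Mgp, Fst and Enpp2. A further sub-cluster, led by Ctrb1 and other acinar genes, had 10 and 100 cells and was not counted. Without these 3, the class ratios were 1.46 for Ccl2, 0.602 for Ccl8 and 0.501 for Ccl12. Sub-clusters of the same 2 libraries are not replicates.

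**Figure D4:**
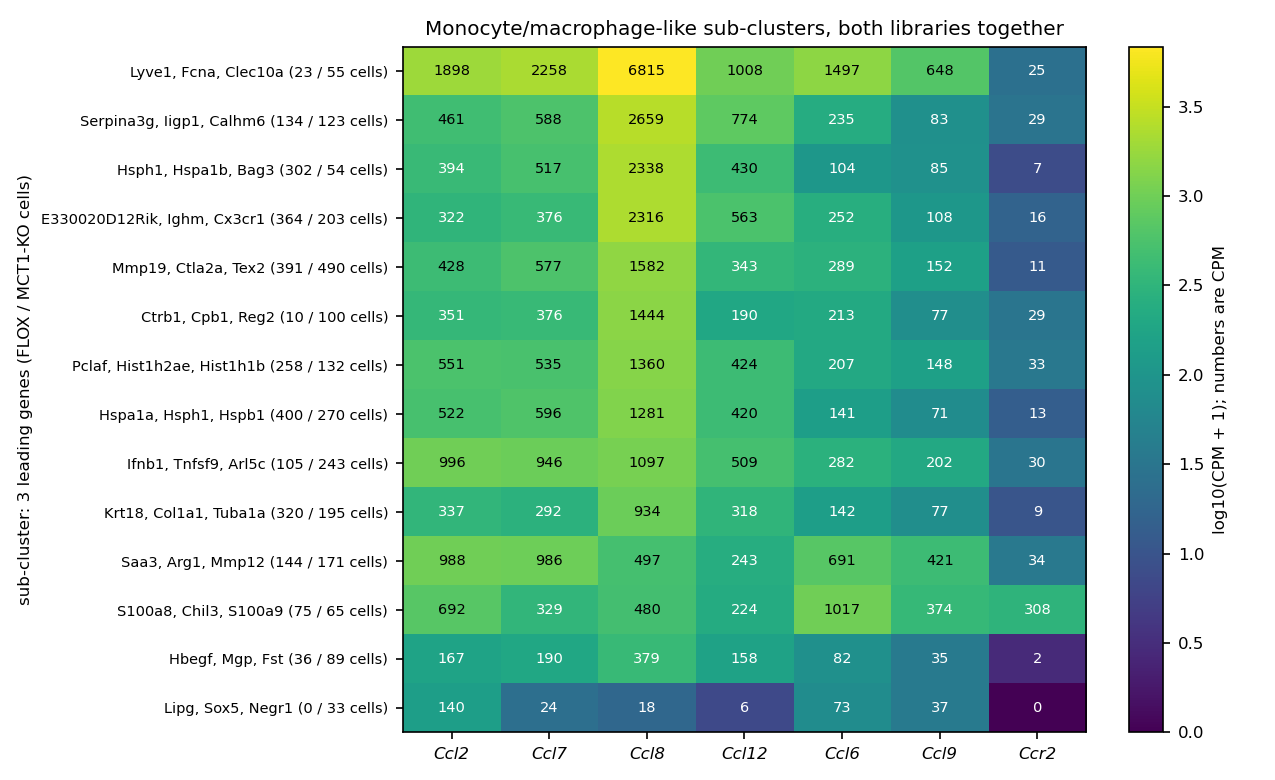
Level of each gene (columns) in the 14 monocyte/macrophage-like sub-clusters (rows, named by leading genes, with FLOX and MCT1-KO cell numbers), both libraries pooled; color is log10(CPM + 1) and the printed numbers are CPM. The Lyve1-led row is highest for all 6 ligands, and the S100a8-led row is highest for Ccr2, at 308 CPM.

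Among PSC-like cells labelled MCT1-KO, Ccl2 was highest in a sub-cluster with Upk1b, Slpi and Nkain4 among its leading genes, which held 41 FLOX and 90 MCT1-KO cells. Upk1b is a gene of mesothelial cells and is on the list fixed for them. Ccl2 stood at 834 CPM (756 to 917) in its FLOX cells and 1980 CPM (1892 to 2072) in those labelled MCT1-KO, a ratio of 2.38 (2.14 to 2.65). In FLOX a shallow sub-cluster of 63 cells, with a median of 1426 UMIs over both libraries, was higher, at 1164 CPM (1052 to 1286). The Upk1b sub-cluster was 19.8% of PSC-like cells and held 44.2% of their Ccl2 UMIs. Without it the Ccl2 ratio of the class was 1.13, under the fold of 1.5.

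In the sub-cluster with Pi16, Dpt and Ccl11 among its leading genes, markers of universal-type fibroblasts, Ccl2 was 721 and 781 CPM and Ccl7 664 and 672 CPM, and both intervals overlapped between libraries. The sub-cluster led by Fmod, Col8a1 and Thbs2 had 489 and 581 CPM of Ccl2 and 465 and 274 CPM of Ccl7, a Ccl7 ratio of 0.589 (0.461 to 0.748). A sub-cluster led by Rgs5, Myh11 and Actg2, genes of pericytes and smooth muscle, had almost none of either, with 2 and 5 Ccl2 UMIs in 14 and 22 cells. A sub-cluster of shallow cells (median 1426 UMIs) went the other way, with 1164 and 589 CPM of Ccl2. A further one, of 14 and 45 cells, carried C1qa, C1qb and C1qc and held 67.1% of the Ccl8 UMIs and 75.8% of the Ccl6 UMIs of the class. The Ccl8 and Ccl6 of PSC-like cells thus lay mostly in cells that also bore macrophage RNA.

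**Figure D5:**
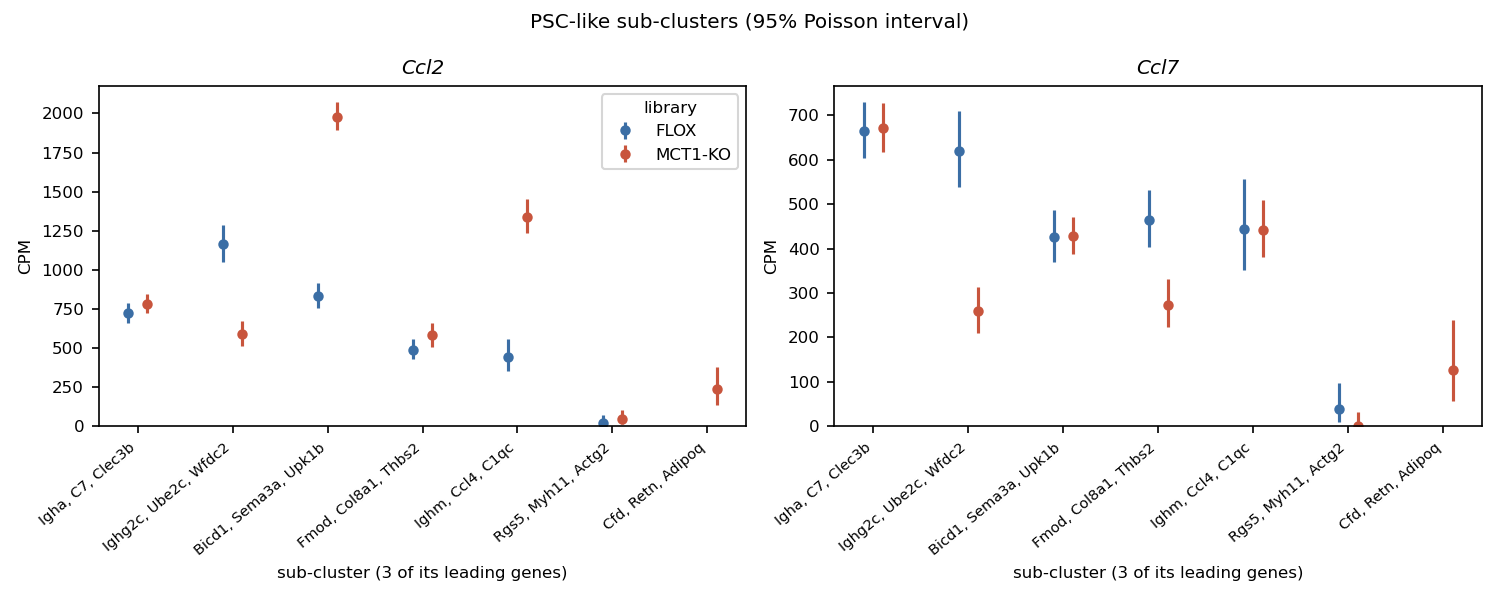
Ccl2 and Ccl7 (vertical axes, CPM) in the 7 PSC-like sub-clusters, named by 3 of their leading genes, for libraries with at least 10 cells in the sub-cluster; points are FLOX and MCT1-KO and bars are 95% Poisson intervals. Ccl2 of the Upk1b sub-cluster stands at 834 and 1980 CPM, while Ccl7 of the same cells stands at 426 and 428 CPM.

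The same cells tended to carry Ccl2 and Ccl7 together. With monocyte/macrophage-like cells thinned to 2000 UMIs (2205 and 1922 cells), Ccl7 was seen in 55.1% (51.5 to 58.6) of FLOX cells with a Ccl2 UMI and in 25.3% (23.0 to 27.6) of those without one. In the library labelled MCT1-KO the shares were 52.1% (48.4 to 55.8) and 16.0% (14.0 to 18.2). PSC-like cells showed the same, with 66.7% and 24.6% in FLOX and 49.7% and 28.2% in the other library. Ccl12 went less sharply with Ccl8, at 39.4% of FLOX cells with and 33.6% without a Ccl8 UMI, and at 31.7% and 15.1% in the library labelled MCT1-KO. In FLOX it went more with Ccl2 (45.8% with and 32.4% without) and with Ccl7 (47.5% and 31.3%), and in the other library the shares were 28.6% and 17.1% for Ccl2 and 35.3% and 15.6% for Ccl7. Ccl9 was seen in 29.3% of FLOX cells with a Ccl6 UMI and 17.0% without, and in 33.0% and 15.8% in the other library. The receptor went against Ccl8. Ccr2 was seen in 2.22% of FLOX cells with a Ccl8 UMI and in 7.91% of those without, and in 1.09% and 3.87% in the library labelled MCT1-KO. Cells are not replicates, and these shares were not tested.

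The genes whose level across clusters was most like each member were taken among 11012 genes with at least 500 UMIs, as the 5 highest values of r over the 46 points, of which those reported here are given. For Ccl2 they were Ccl7 (0.94), Tmem119 (0.92), Trem2 (0.90), Ifi204 and Ifi207, and for Ccl7 Tmem119 (0.95), Ccl2, Trem2, Pla2g15 and Pdpn. Ccl8 was closest to Ms4a7 (0.96), C1qa (0.95), Ccl12, C1qc and C1qb, and Ccl12 to Ms4a7 (0.96), Rab3il1, C3ar1, C1qa and Fcgr1. Ms4a7, the C1q genes and Fcgr1 are macrophage genes and are among the markers by which the class was named. Ccl6 was closest to Ccr1 (0.97), its own receptor, followed by Cd300lf, Pirb and Itgam, genes of myeloid cells. Ccl9 was closest to Cd68 (0.88), 4930430E12Rik, Tlr8, Adgre1 and Naip2, and Ccr2 to Klrb1b (0.87), Id2, Clec10a, Ptger4 and Gna15. The values for Ccr2 and Ccl9 were the lowest of the 7 leading values.

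Other receptors that read CC chemokines or share cells with Ccr2 were also followed in monocyte/macrophage-like cells. Of the 9 receptors and decoys, 4 had at least 50 UMIs, with a median ratio of 0.866. Of these 2 were lower and 0 higher past 1.5 fold in the library labelled MCT1-KO, beside 8.92% and 8.87% of genes in the class. Cx3cr1, the fractalkine receptor, stood at 473 and 192 CPM, a ratio of 0.405 (0.386 to 0.424). Ccr1, the receptor of Ccl6 and Ccl9, was at 144 and 157 CPM, a ratio of 1.09 (1.02 to 1.16). Ccr8 had 0 UMIs in both libraries.

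The 6 other CC ligand genes on the list had a median ratio of 1.01 over the 4 with at least 50 UMIs. Of these 1 was higher past 1.5 fold, beside 8.87% of genes in the class. Ccl3, Ccl4 and Ccl5, inflammatory attractants of leukocytes, had ratios of 0.945, 1.07 and 0.802, and Ccl24, an eosinophil attractant, 3.22 (2.27 to 4.62) at 3.01 and 9.68 CPM. In PSC-like cells 5 of these ligands had at least 50 UMIs, with a median ratio of 1.51. Of them 3 (Ccl3, Ccl4 and Ccl5) were higher past 1.5 fold and 0 lower, beside 9.96% and 11.2% of genes in PSC-like cells. There Ccl4 stood at 84.3 and 224 CPM, while Ccl11, another eosinophil attractant, stood at 119 and 81.1 CPM. Ccl4 was itself a leading gene of the PSC-like sub-cluster that carried C1q genes. By sum the genes of C1q macrophages stood at 2914 and 4935 CPM in PSC-like cells. The part of macrophage RNA in these ligand ratios was not tested. Of the 9 cytokines known to induce or damp these ligands, 6 had at least 50 UMIs in monocyte/macrophage-like cells, with a median ratio of 1.18. Il6 was the 1 past 1.5 fold, beside 8.87% of genes higher past it in the class, at 8.46 and 32.1 CPM, a ratio of 3.79 (3.10 to 4.66). Tnf was at 1.25, Il1b at 1.10 and Il10 at 0.686. Among 9 NF-kB and interferon regulators the median ratio was 0.991. Of these 1 was lower and 0 higher past 1.5 fold, beside 8.92% and 8.87% of genes in monocyte/macrophage-like cells.

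State genes of monocyte/macrophage-like cells lay on both sides of 1. The 7 inflammatory monocyte genes had a median ratio of 2.25, with 5 higher past 1.5 fold, beside 8.87% of genes in the class. Their sum was also higher in neutrophil-like cells, at 2436 and 8989 CPM, and Chil3 was among the leading genes of a neutrophil-like cluster. There 2 of 5 genes were higher past that fold, beside 14.4% of 4888 genes in neutrophil-like cells, but the median ratio was 0.928. In monocyte/macrophage-like cells the genes differed widely. Chil3 stood at 30.7 and 266 CPM, a ratio of 8.68 (7.88 to 9.57), and Ly6c2 at 9.04 and 8.67 CPM, a ratio of 0.960 (0.737 to 1.25). Ccr2, the receptor of such monocytes, was nonetheless at 0.539. The 8 genes of C1q macrophages had a median ratio of 0.993, with Mrc1 higher (361 and 707 CPM) and Ms4a7 lower (904 and 570 CPM) past 1.5 fold, and C1qa, C1qb and C1qc between 0.970 and 0.996. Ccl8 and Ccl12, which were like these genes across clusters, thus had lower ratios than the C1q genes. The 8 genes of the Arg1 state had a median ratio of 0.553, with 5 lower and 1 higher past 1.5 fold, beside 8.92% and 8.87% of genes in the class. By sum the list was also lower in neutrophil-like (0.673), tumor epithelial-like (0.764) and T/NK cell-like cells (0.828), among others. It was higher in dendritic cell-like (1.22) and acinar-like cells (1.28). The higher one was Ndrg1, a gene of the hypoxia response, at 92.8 and 148 CPM, a ratio of 1.59 (1.48 to 1.71). Hmox1, the heme-degrading enzyme, was at 0.487 (0.462 to 0.514), and Arg1 itself at 0.789 (0.763 to 0.815).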

How the data were processed

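Tumor tissue was profiled by single-cell RNA sequencing in 2 libraries, FLOX and MCT1-KO, grouped by their labels. The values are raw UMI counts per gene and barcode as deposited by the authors, unfiltered, for 32285 genes. The submitters' processing notes name Seurat 4.0.0 and GRCh38, a human build, while the gene identifiers are those of mouse, so the build behind the counts was not settled. Positions come from GENCODE vM21 and promoters from RefSeq, both on GRCm38.

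Barcodes of 500 or more UMIs with 200 to 5000 genes and at most 8% mitochondrial UMIs were kept (8739 and 11689 cells, 61149689 and 81494894 UMIs). In Seurat 5.3.0 (R 4.3.3, Matrix 1.6.5), counts were log-normalized (factor 10000), scaled with UMI number regressed out, integrated by canonical correlation on 2000 variable genes without the 7 members, and clustered on 20 dimensions at resolution 0.8. A cluster was named from at least 3 fixed markers, each in at least 10% of its cells, unless its 10 leading genes went against the name. Clusters of low depth with none of these markers among their 10 leading genes also stayed unnamed. The names are rebuilt here and may differ from those of the study. No doublets were removed. An alternative dropped, in each library, the top 8% of cells by a score of simulated doublets among 50 neighbours.

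UMIs were summed per class and library in Python 3.11.15 (scipy 1.17.1, scikit-learn 1.9.0, numpy 2.4.6, matplotlib 3.10.9, pandas 2.3.3) and given as CPM with exact Poisson 95% intervals, ratios with conditional exact intervals and shares with Clopper-Pearson intervals. With 1 library per group there was no test. Genes with at least 50 UMIs in a class were counted at a fold of 1.5. The interval of the ratio was checked only on simulated Poisson counts with known ratios. Those counts have no clumping of UMIs in a few cells, so the check does not cover it. Genes named are the members, the fixed lists, for each member the 5 genes with the highest r, Slc16a1 and leading genes. The members and lists were chosen with earlier results of these data known, and sub-clusters and the alternatives that leave them out were chosen after seeing the data. Alternatives covered cell filters, resolution, integration, class assignment, doublets, free RNA, totals and thinning. Some genes of the lists are not reported here.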

Additional observations from a re-analysis of the deposited data

How the results depend on the processing

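Ratios are MCT1-KO over FLOX in monocyte/macrophage-like cells unless a class is named, and shares are percents of a gene's UMIs held by monocyte/macrophage-like cells, both libraries together. With each cell classed by its own markers, the ratio was 1.49 for Ccl2, 0.878 for Ccl7, 0.624 for Ccl8, 0.524 for Ccl12, 1.27 for Ccl6 and 0.916 for Ccl9, and in PSC-like cells it was 1.84 for Ccl2 and turned to 1.07 for Ccl7. The shares were then 60.3% for Ccl2, 75.8% for Ccl7, 87.7% for Ccl8, 87.3% for Ccl12, 71.2% for Ccl6, 84.5% for Ccl9 and 67.9% for Ccr2. Without likely doublets the ratios were 1.48, 0.857, 0.612, 0.502, 1.24 and 0.956 for Ccl2, Ccl7, Ccl8, Ccl12, Ccl6 and Ccl9, and the shares 65.7%, 81.5%, 94.8%, 94.8%, 76.1%, 90.1% and, for Ccr2, 66.9%. With free RNA subtracted the ratios were 1.03, 0.606, 0.420, 0.362, 0.902 (turned, for Ccl6) and 0.656, with 0.409 for Ccr2, 1.28 and 0.697 for Ccl2 and Ccl7 in PSC-like cells and 0.321 for Ccl6 in neutrophil-like cells. The shares of the 6 ligands were then 69.4%, 84.8%, 98.2%, 98.9%, 79.0% and 96.2%. Cells thinned to 1000 UMIs gave 1.40 for Ccl2, 0.867 for Ccl7, 0.537 for Ccl8, 1.25 for Ccl6, 0.989 for Ccl9 and 0.714 for Ccr2, and in PSC-like cells 2.01 for Ccl2 and 0.942 for Ccl7. A total without mitochondrial, ribosomal, heat shock and acinar genes gave 1.36 for Ccl2, 0.814 for Ccl7 and 0.572 for Ccl8. Without the 10 cells richest in the gene, Ccl8 was at 0.523, and in PSC-like cells Ccl2 was at 2.05 and Ccl7 at 0.966. At a minimum of 1000 UMIs per cell the share was 92.8% for Ccl8 and 76.5% for Ccl6.

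The settings given next, which add cells of over 5000 genes or leave out sub-clusters, were chosen after seeing the data. With cells of over 5000 genes added, the ratios of the 6 ligands were 1.38, 0.849, 0.594, 0.508, 1.23 and 0.899, that of Ccl2 in PSC-like cells 1.43, and the shares 56.7%, 75.3%, 88.8%, 89.4%, 72.8% and 84.8%. Without sub-clusters led by genes of other cells the ratios were 1.46, 0.851, 0.602, 0.501, 1.28 and 0.930. Without the heat-shock-led sub-clusters they were 0.811 for Ccl7, 0.592 for Ccl8, 1.09 for Ccl6 and 0.779 for Ccl9. Without the sub-clusters led by Lyve1 or Lipg, Ccl8 was at 0.511, and without the Upk1b sub-cluster Ccl2 of PSC-like cells was at 1.13. The causes of these shifts were not tested. The planned settings of resolution 0.4, merging without integration and a mitochondrial limit of 5% moved none of these ratios or shares by more than its counting interval. Without integration, though, the libraries largely parted within monocyte/macrophage-like cells. A cluster led by Arg1 held 281 FLOX and 1704 MCT1-KO cells, and one led by Hspa1a held 1718 and 101. Over all 14 alternatives, Ccl8 (0.420 to 0.624) and Ccl12 (0.362 to 0.524) kept a ratio past 1.5 fold. At a minimum of 2000 UMIs per gene, also planned, 3 of the 5 genes most like Ccl9 and 2 of the 5 most like Ccr2 stayed.

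No paired analysis was possible because each genotype has 1 library, and for the same reason no replicate was left out. The sizes of these differences cannot be set against the spread between animals. Free RNA was estimated from acinar genes, whose own levels differed between the libraries. The subtraction took a larger share of FLOX than of MCT1-KO UMIs in monocyte/macrophage-like, PSC-like and neutrophil-like cells. Ccr2 and the ligands in small classes rest on few UMIs, so their intervals are wide.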
